A study of Rattus norvegicus with 23 samples.

Results

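The genes described here encode the enzymes of fatty acid oxidation and the peroxins that build peroxisomes, and they were measured by RNA sequencing in the lungs of male rats exposed to eucalyptus smoke. Members were chosen by symbol: 26 listed genes of mitochondrial and peroxisomal fatty acid oxidation with their regulator Ppara, plus protein coding genes whose symbol is Pex followed by a digit. Described here are 25 of the 26 listed genes and 13 peroxins, together 38 of the 19249 genes in the deposited table. Eci2 was not analysed here. The rule itself used no measured value, but members and lists were chosen with earlier results of these data known. Of the 38 members, 37 had a mean of at least 10 normalized counts over the libraries and were tested, namely 21 mitochondrial enzymes, 3 peroxisomal enzymes, 12 peroxins and Ppara. The peroxin relative Pex5l lay under that level.

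The study had 3 groups of male rats. Filtered air gave 7 libraries, low smoke gave 8 and high smoke gave 7. Whole-body exposure was steered by carbon monoxide, with targets of 10 ppm in low smoke and 20 ppm in high smoke, over 4 days in week 1 and, after a break of 3 days, 3 days in week 2. The schedule was meant to resemble work shifts at a fire line. Of 24 rats randomized by weight, with 8 planned per group, each library came from the frozen lung tissue of 1 rat, so that p-values measure the spread between animals. The labels give neither strain nor age, and the time between the last exposure and tissue collection is not given in the sources used here.

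Fatty acids are burned in mitochondria and in peroxisomes. In mitochondria, a fatty acid is activated to an acyl-CoA, carried across the inner membrane on carnitine, and shortened step by step by a dehydrogenase, a hydratase, a second dehydrogenase and a thiolase. Peroxisomes shorten very long and branched chains and make the precursors of ether lipids, and their oxidases release hydrogen peroxide, which catalase removes. Peroxins insert membrane proteins, import enzymes from the cytosol and divide the organelle. In the lung, peroxisomes are abundant in alveolar type 2 cells, the makers of surfactant, and in club cells of the airway. PPARα, encoded by Ppara, is a nuclear receptor that switches on many of these genes when fatty acids bind it.

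All values are the authors' normalized counts, in which each library was scaled by its own size factor, and levels were not compared between genes because no transcript lengths were at hand. Differences are given as log2 of high or low smoke over air, on the scale of log2(value + 1), with their standard error (SE). The test was limma across all 14414 genes with a mean of at least 10, with p-values adjusted by the Benjamini-Hochberg method over all of them. "Rose" and "fell" are used only where the adjusted p was below 0.05. In whole lung tissue, a change in the number of cells of a type and a change in RNA per cell cannot be told apart.

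Some facts of the whole data set touch the members. High smoke replicates 1, 3 and 7 stood apart from the other libraries on the first principal component of all genes, at 51.5, 41.7 and 36.5. Air lay between -21.6 and -0.3, low smoke between -12.7 and -1.8, and the other 4 high smoke libraries between 0.3 and 8.8. Summed small nucleolar RNA was 2712 to 13353 normalized counts in air, 9071 to 22655 in low smoke, 16689 to 33208 in those 4 high smoke libraries, and 51427, 48231 and 40912 in replicates 1, 3 and 7. Without those 3 libraries, 124 of 14394 genes (0.861%) differed between high smoke and air, compared with 2343 of 14414 (16.3%) with them, so the calls below are also given without them. Air replicate 3 stood apart on the second component, at 44.6.

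In high smoke against air, 6 of the 37 tested members rose and 0 fell. They were the thioesterase Acot8 and the bifunctional enzyme Ehhadh of the peroxisome, the peroxins Pex11g and Pex5, and the mitochondrial enzymes Hsd17b10 and Acadm. That is 16.2% of the members, close to the 16.3% of all genes tested that were called, of which 9.21% were called upward and 7.05% downward. A share so near that of all genes is no result about the members as a set. Among the 37, 24 lay above air and 13 below, with a median log2 difference of 0.11, beside -0.0021 over all genes tested. At an unadjusted p under 0.05 there were 11 members, 10 of them higher and 1, Decr1, lower in high smoke. A rank-sum test with the same adjustment called only Acot8. High smoke and air libraries overlapped for each of the 37 members, and 1.87% of all genes tested showed no overlap. Without high smoke replicates 1, 3 and 7, only Acot8 passed, and the members' median was 0.06.

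**Figure D1:**
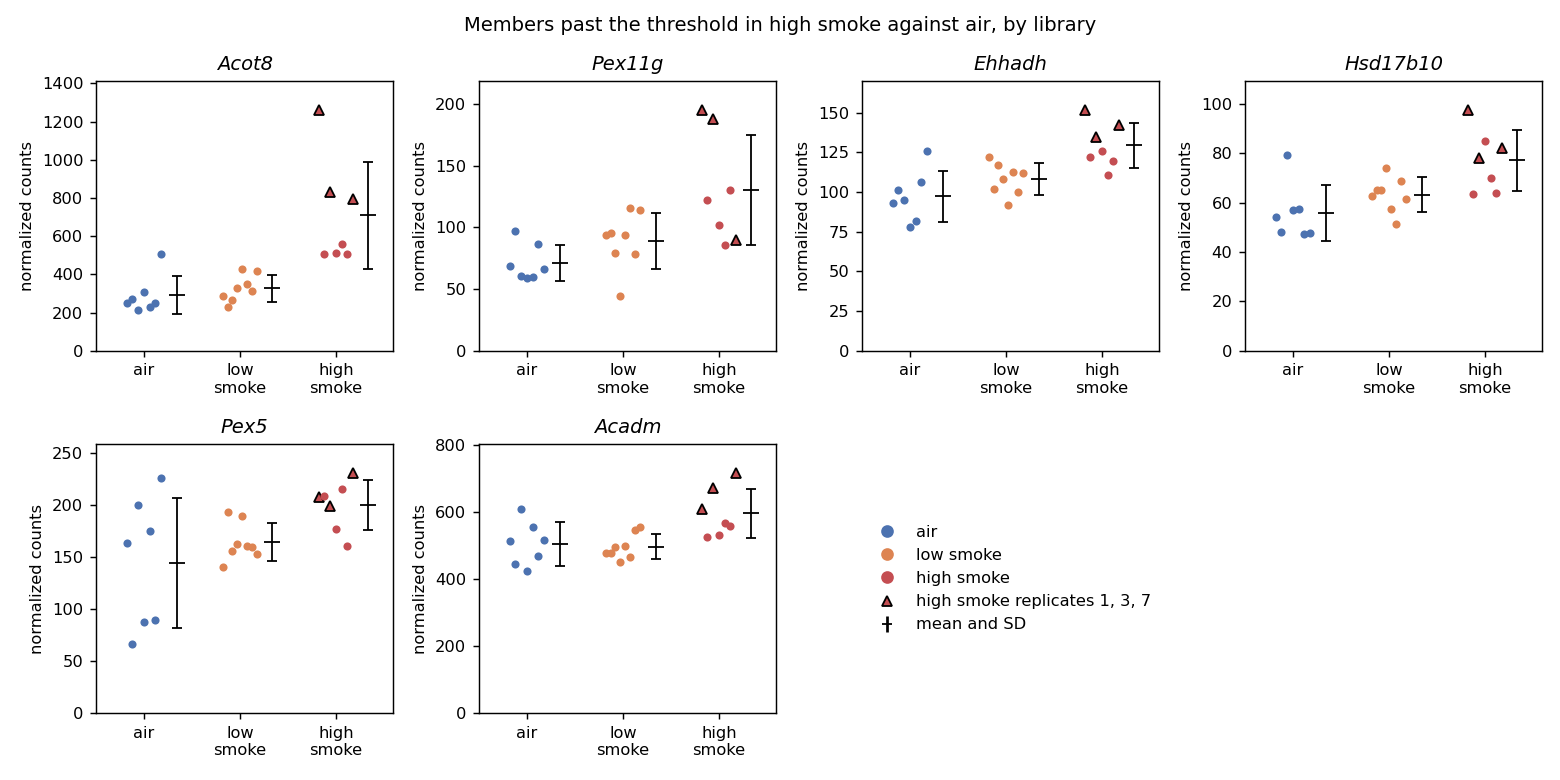
Normalized counts of the 6 members past the threshold in high smoke against air, by group in order of dose. Circles are libraries, black-edged triangles are high smoke replicates 1, 3 and 7, and bars give the mean and SD. In Acot8 the triangles lie above every other library, at 795.2 to 1261, and in Pex5 the air libraries spread from 66.88 to 225.9.

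The enzymes of peroxisomal oxidation showed the largest difference of any member. Acot8, which splits acyl-CoA into free fatty acid and CoA inside the peroxisome (rn6 chromosome 3, 161259735 to 161272461, minus strand), ranged from 504.1 to 1261 normalized counts with a median of 557.1 in high smoke, and from 214.2 to 506.2 with a median of 252.2 in air. In high smoke, 5 of 7 libraries lay above every air library, and the 2 that did not were just under air replicate 7, which at 506.2 stood far above the other air libraries. Acot8 rose 2.39-fold (log2 1.26, SE 0.20, limma adjusted p = 0.000387). Replicates 1, 3 and 7 held the 3 highest values, 1261, 832.8 and 795.2, and without them the difference was 0.89 with an adjusted p of 0.0251. The call was kept when any single library was left out.

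Ehhadh, the bifunctional enzyme that carries out the hydratase and dehydrogenase steps in peroxisomes (chromosome 11, 82945104 to 82978365, plus strand), rose 1.34-fold. Its values ran from 110.5 to 151.7 with a median of 125.9 normalized counts in high smoke, and from 77.74 to 125.7 with a median of 95.06 in air. All 7 high smoke libraries were above the air median and 4 were above every air library (log2 0.42, SE 0.10, limma adjusted p = 0.0084). Without the 3 libraries that stood apart the difference was 0.31 (adjusted p = 0.235). Hsd17b4, which catalyses the same steps for very long and branched chains, did not pass the test: it ran from 1552 to 2726 in high smoke and from 1553 to 2151 in air, a log2 difference of 0.12 with a 95% interval from -0.08 to 0.32.

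Of the 12 peroxins described here and tested, 2 rose and 0 fell, 16.7% beside 16.3% of all genes. A share so near that of all genes is no result about the peroxins as a set. Pex11g, of the family that elongates the peroxisome membrane before it divides (chromosome 12, 2000427 to 2007517, minus strand) ranged from 85.85 to 195 with a median of 122.1 in high smoke, and from 59.23 to 96.83 with a median of 66.23 in air. Replicates 1 and 3 carried the highest values, 195 and 187.6, whereas replicate 7, at 90.0, was among the lowest of the group. Pex11g rose 1.77-fold (log2 0.82, SE 0.20, limma adjusted p = 0.00786), and 5 of 7 high smoke libraries lay above every air library. Without the 3 libraries the difference was 0.63 (adjusted p = 0.15). Pex11a, the family member known in rodents as inducible by PPARα ligands, did not pass the test: it ran from 442.7 to 518.8 with a median of 478.5 in high smoke and from 418.1 to 591.6 with a median of 515.6 in air, and its difference of -0.08 had a 95% interval from -0.24 to 0.09.

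The promoter windows of Acot8 and Pex11g are shown because these were the called members that held the motif AGGTCA, the sequence that PPARα and related nuclear receptors recognise. They are RefSeq windows of 300 bases in the build GRCr8, from 250 bases before to 50 after the gene start, read 5′ to 3′ on the gene's strand, with AGGTCA in capitals (Acot8 chr3:173962139-173962438, minus strand; Pex11g chr12:6310337-6310636, minus strand).
Acot8: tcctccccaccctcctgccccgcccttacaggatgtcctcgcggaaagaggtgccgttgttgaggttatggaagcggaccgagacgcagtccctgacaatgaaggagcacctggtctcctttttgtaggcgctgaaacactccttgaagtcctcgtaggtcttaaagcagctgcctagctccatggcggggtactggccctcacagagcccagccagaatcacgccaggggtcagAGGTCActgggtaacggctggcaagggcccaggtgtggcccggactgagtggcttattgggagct
Pex11g: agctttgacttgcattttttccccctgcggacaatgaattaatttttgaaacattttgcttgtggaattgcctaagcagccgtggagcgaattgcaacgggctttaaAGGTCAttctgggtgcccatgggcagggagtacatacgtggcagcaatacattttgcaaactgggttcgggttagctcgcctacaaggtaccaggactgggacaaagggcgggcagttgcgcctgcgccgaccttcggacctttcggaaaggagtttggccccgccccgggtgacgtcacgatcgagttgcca
Of the 38 members, 31 had such a window, and 7 of the 31 held AGGTCA on either strand (Acadvl, Acot8, Echs1, Eci1, Hadhb, Hsd17b4 and Pex11g), beside 16.2% of all 33469 windows. The Echs1 window lies on the minus strand (GRCr8 chr1:204333457-204333756), whereas the counted Echs1 lies on the plus strand in rn6 (chromosome 1, 141821916 to 141830765). Pex11a, close to the counted Echs1 in rn6 (chromosome 1, 141474180 to 141481316), has its window far from that of Echs1, at GRCr8 chr1:143096442-143096741. By position, the Echs1 window is therefore unlikely to belong to the counted gene, and the counts of windows here still include it. Etfb also changes strand, from minus in rn6 to plus in GRCr8, and its window held no AGGTCA. All 6 members that rose had a window, and 2 of them held the motif, at position -15 from the gene start in Acot8 and -143 in Pex11g. The full direct repeat AGGTCANAGGTCA, the arrangement that PPARα binds together with RXR, was found in 0 of 31 members and in 0.0538% of all windows. A looser form with any first base, NGGTCANAGGTCA, which was chosen after the sequences had been seen and which overlaps the AGGTCA above, was found in Acot8 alone among the members and in 0.102% of all windows. These matches describe the letters in the windows and nothing about binding.

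In the import machinery, Pex5 alone passed the test. Pex5, the receptor that carries enzymes with the C-terminal peroxisomal signal (chromosome 4, 156983915 to 157009675, minus strand), ran from 160.1 to 230.9 with a median of 207.1 normalized counts in high smoke and from 66.88 to 225.9 with a median of 163.6 in air. The air libraries fell into 3 low values, from 66.88 to 89.9, and 4 values from 163.6 to 225.9, and only 1 of 7 high smoke libraries lay above every air library. Pex5 passed the threshold narrowly (log2 0.59, SE 0.20, 1.5-fold, limma adjusted p = 0.0435), and without the 3 libraries that stood apart the difference was 0.52 (adjusted p = 0.35). The call was kept in 13 of 22 fits that each left out 1 library. It was lost without high smoke replicate 1, 2, 3, 5 or 7, low smoke replicate 6, or air replicate 2, 4 or 6, with adjusted p-values up to 0.104.

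The other peroxins described here did not pass. Pex7, the receptor for the N-terminal signal, differed by -0.08, and the docking proteins Pex13 and Pex14 by -0.04 and 0.18. Pex2 and Pex10, ubiquitin ligases that mark the import receptor for recycling, differed by -0.07 and -0.13. Pex6, an ATPase that pulls the receptor out of the membrane, came closest to the threshold. It ran from 225.7 to 308.4 with a median of 249.3 in high smoke and from 199 to 245.2 with a median of 215.8 in air. All 7 high smoke libraries were above the air median, 4 were above every air library, and the difference was 0.23 (adjusted p = 0.0691; 0.23 without the 3 libraries, adjusted p = 0.313). Its anchor Pex26 differed by 0.09. Pex3 and Pex16, which insert membrane proteins, differed by 0.01 and 0.09. Over the 12 peroxins tested, the median was 0.05, with 7 above air and 5 below. It was 0.06 without the 3 libraries, where limma called 0 of the 12.

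**Figure D2:**
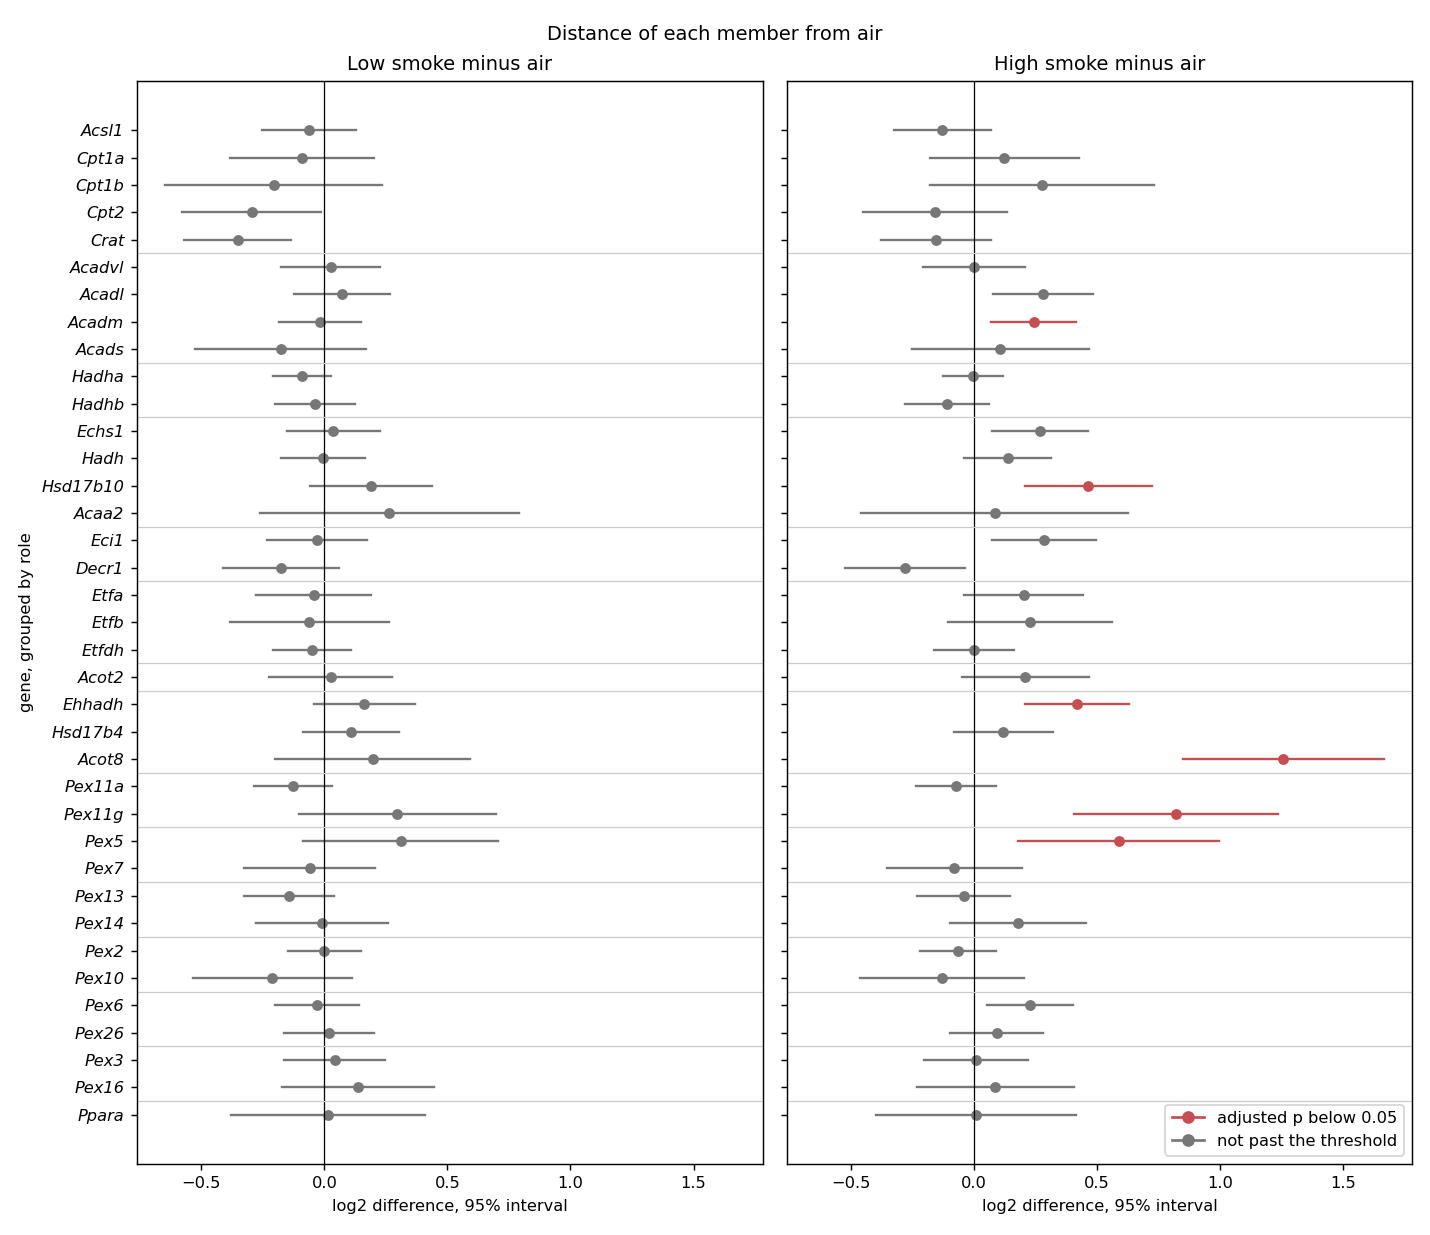
Log2 difference from air of each of the 37 tested members, with its 95% interval, in low smoke (left) and high smoke (right). Genes run from mitochondrial entry at the top to peroxisome assembly and Ppara at the bottom, with lines between roles, and red marks an adjusted p below 0.05. All 6 red points are in high smoke, above 0, and Acot8 lies farthest out at 1.26.

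Of the 21 mitochondrial enzymes, 2 rose and 0 fell, 9.52% beside 16.3% of all genes, with 13 above and 8 below air and a median of 0.12. Without the 3 libraries that stood apart, limma called 0 of them, and the median was 0.05. At an unadjusted p under 0.05 there were 6, 5 of them higher in high smoke, and the rank-sum test called 0. Hsd17b10, a dehydrogenase of short and branched chains that is also a subunit of mitochondrial RNase P (chromosome X, 21696772 to 21699242, plus strand), had values of 63.67, 78.14 and 97.61 (lowest, median and highest) in high smoke and 47.47, 54.23 and 79.51 in air. Only air replicate 3, at 79.51, reached into the upper part of the high smoke range. The rise was 1.38-fold (log2 0.46, SE 0.13, limma adjusted p = 0.0142), and 0.34 without the 3 libraries (adjusted p = 0.278).

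Acadm, the medium chain dehydrogenase (chromosome 2, 260124418 to 260148590, minus strand), ran from 524.7 to 717.4 with a median of 567.6 in high smoke and from 424.8 to 610.3 with a median of 513.1 in air. Every high smoke library was above the air median, but only 2 were above every air library, and the rise was 1.18-fold (log2 0.24, SE 0.08, limma adjusted p = 0.0489). This call was kept in 5 of 22 fits that left out 1 library each. It was lost without high smoke replicate 1, 3, 5 or 7, without any 1 low smoke library, and without air replicate 1, 2, 4, 6 or 7, with adjusted p-values up to 0.125. Without the 3 libraries the difference was 0.12 (adjusted p = 0.583). Acadl, the long chain dehydrogenase, at 0.28 (adjusted p = 0.0524), the hydratase Echs1 at 0.27 (0.0558) and the isomerase Eci1 at 0.29 (0.0582) lay just short of the threshold. Without replicates 1, 3 and 7, Acadl was at 0.08 (adjusted p = 0.738), Echs1 at 0.13 (0.579) and Eci1 at 0.12 (0.627). Leaving out high smoke replicate 4 or high smoke replicate 6 brought each of these 3 genes past it, and the count of called members to 10 without replicate 4 and 9 without replicate 6.

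No other mitochondrial step passed the test. In the trifunctional protein, which handles long chains at the inner membrane, Hadha differed by -0.00 with a 95% interval from -0.13 to 0.12, and Hadhb by -0.11. Acadvl, the very long chain dehydrogenase, also differed by -0.00 (interval -0.21 to 0.21), and Acads, for short chains, by 0.11. Hadh, the short chain dehydrogenase, was at 0.14. The thiolase Acaa2 was at 0.08, with a wide range in air, from 42.57 to 219.3, whose top value belonged to air replicate 3. Decr1, a reductase for unsaturated chains, was the lowest mitochondrial member at -0.28 (adjusted p = 0.105). Electrons from the dehydrogenases pass through Etfa, Etfb and Etfdh, which differed by 0.20, 0.23 and -0.00, and the thioesterase Acot2 was at 0.21.

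For entry into mitochondria, 0 of 5 members passed the limma test, none had an unadjusted p under 0.05, and the rank-sum test called 0. The activating enzyme Acsl1 differed by -0.13, the carnitine transferases Cpt1a by 0.12 and Cpt2 by -0.16, and the acetyl transferase Crat by -0.15. Cpt1b, the muscle form, was at 0.27 with a wide interval from -0.18 to 0.73. Its libraries also varied in heart muscle RNA: the summed cardiac markers ranged from 129 to 1627 normalized counts in air, 159 to 1541 in low smoke and 173 to 1354 in high smoke, with none of the 9 measured markers at 0 in all libraries, and their part in the Cpt1b values was not tested. Ppara itself ran from 33.64 to 49.29 with a median of 44.54 in high smoke and from 25.93 to 60.13 with a median of 43.15 in air. Its difference was 0.01, with an interval from -0.40 to 0.42 and changes within it were not detectable with these rats. Pex5l, a relative of Pex5 known from neurons, ran from 2.41 to 13.7 in high smoke and from 4.49 to 20.9 in air and was not tested.

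**Figure D3:**
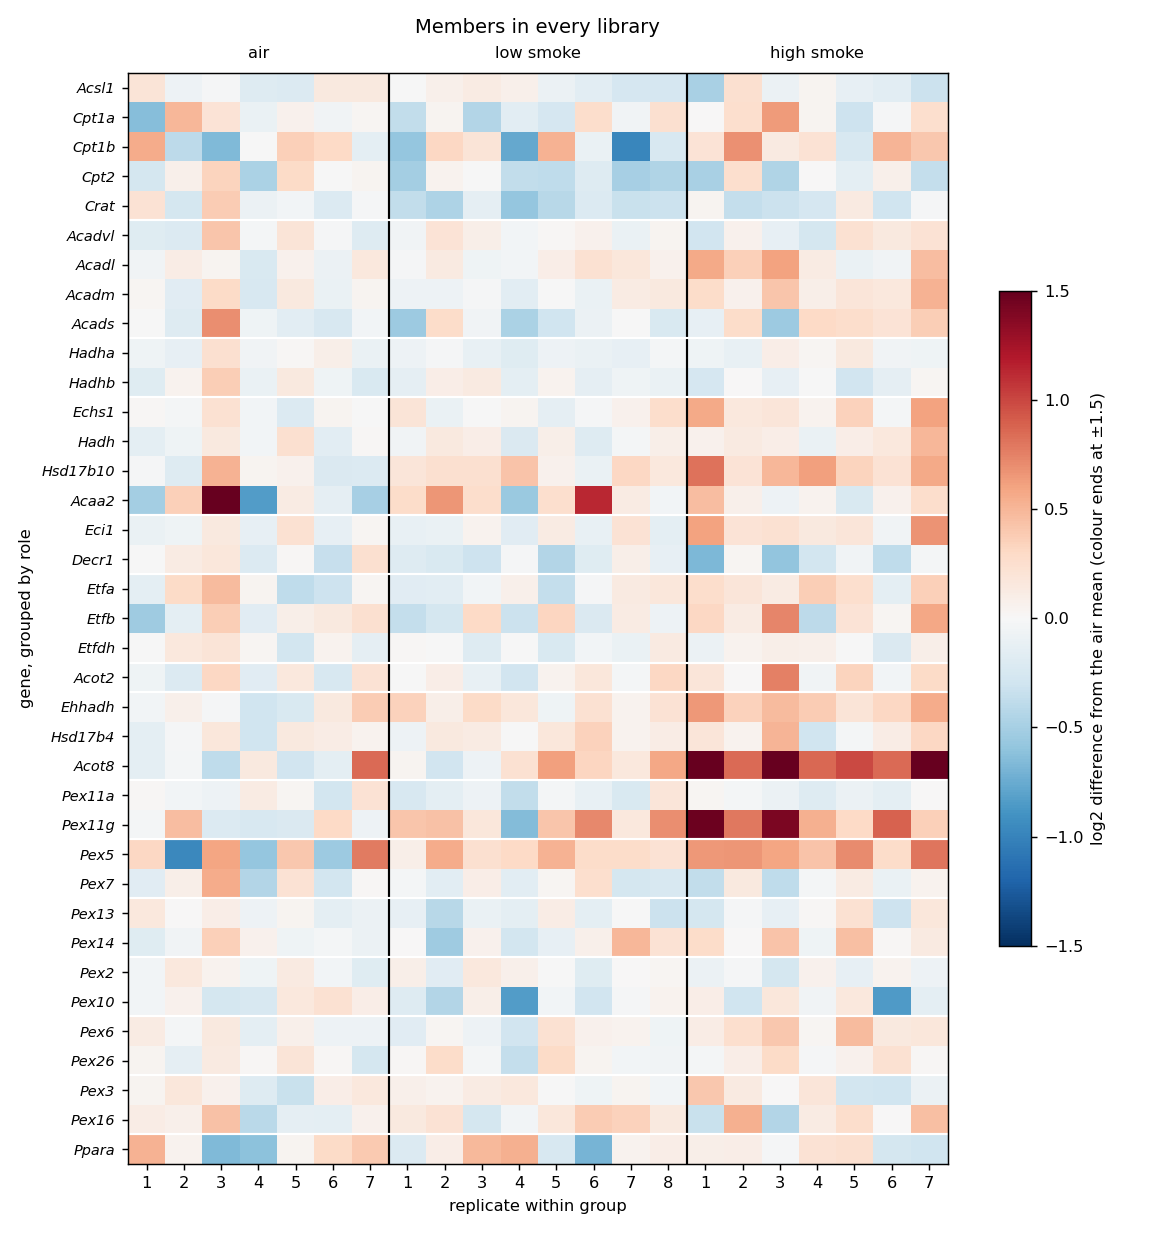
Each tested member (rows, by role) in each library (columns, by group in order of dose), as log2 difference from the air mean, red higher and blue lower. Acot8 and Pex11g are red across high smoke, most of all in replicates 1 and 3, whereas the 3 low Pex5 values in air (replicates 2, 4 and 6) and the high Acaa2 value of air replicate 3 stand out among the controls.

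Read by library, the members' median distance from the air mean was -0.12 to 0.19 in air, -0.15 to 0.06 in low smoke and 0.00 to 0.25 in high smoke. The groups overlapped on this measure. Air replicate 3 gave the highest air value, with 29 of 37 members above the air mean, and high smoke replicate 2 had the most of any library, 31 of 37. The 31 members that were not called had a median of 0.08 in high smoke against air.

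**Figure D4:**
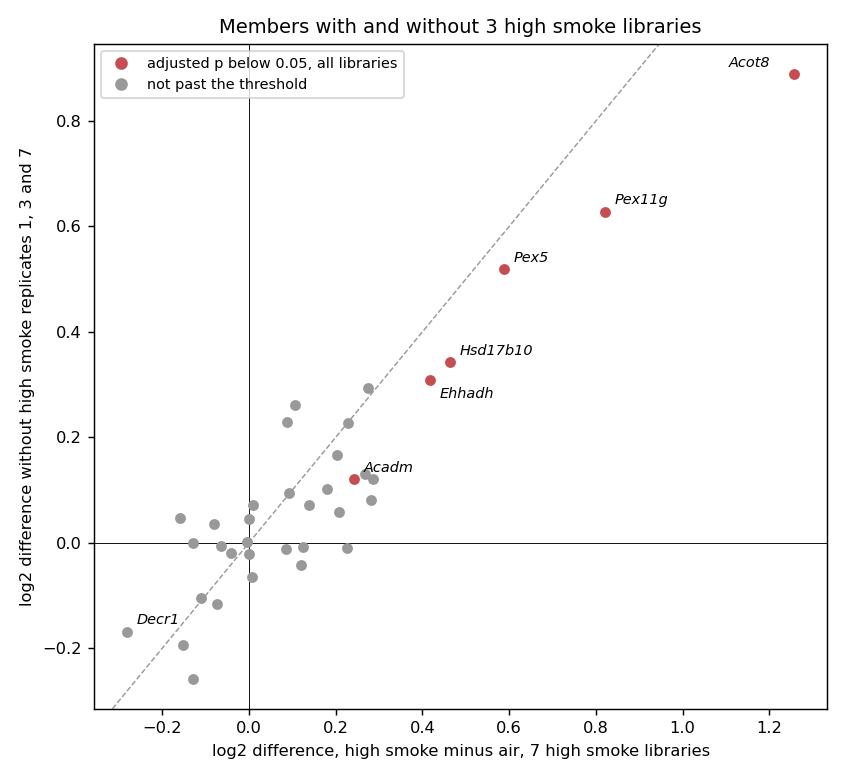
Log2 difference of each tested member in high smoke against air with all 7 high smoke libraries (x axis) and without high smoke replicates 1, 3 and 7 (y axis), with the line of equality dashed. The 6 called members (red) keep a positive difference but lie below the line, Acot8 at 1.26 against 0.89 and Pex11g at 0.82 against 0.63.

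Low smoke was set against air to ask whether the lower concentration moved these genes. In low smoke against air, 0 of 37 members passed, and 0% of all genes did, although 923 of the 14414 had an unadjusted p under 0.05. By limma, 2 members had an unadjusted p under 0.05 and the rank-sum test called 0. Both were lower in low smoke, and both act on carnitine esters. Crat, which moves acetyl groups between CoA and carnitine, ran from 82.39 to 112.5 with a median of 96.72 in low smoke and from 103.2 to 161 with a median of 120.6 in air. All 8 low smoke libraries were below the air median, and the log2 difference was -0.35 (SE 0.11, unadjusted p = 0.00256, limma adjusted p = 0.495). Cpt2, which returns the acyl group to CoA inside the mitochondrion, differed by -0.30 (unadjusted p = 0.0411, limma adjusted p = 0.769), with 7 of 8 low smoke libraries below the air median. In high smoke these 2 genes differed from the same air libraries by -0.15 and -0.16.

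The 6 members that rose in high smoke lay closer to air in low smoke. They were chosen by their difference in high smoke from the same air libraries, so smaller differences in low smoke are no separate result. In high smoke against low smoke, limma called only Acot8 among them. Acot8 ran from 228.2 to 427.3 with a median of 319.3 in low smoke, a log2 difference from air of 0.20 with an interval from -0.20 to 0.59. Pex11g, from 44.14 to 115.4 with a median of 93.44, differed by 0.30. Ehhadh was at 0.16, Hsd17b10 at 0.19, Pex5 at 0.31 and Acadm at -0.02. Over all members the median was -0.02, beside 0.0031 over all genes, with 15 above air and 22 below.

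High smoke against low smoke asks whether the 2 concentrations differ, and 1 of 37 members (2.7%), Acot8, rose there and 0 fell, beside 6.78% of all genes called and 3.8% called upward. Acot8 was higher in every high smoke library than in any low smoke library, with a log2 difference of 1.06 (SE 0.19, limma adjusted p = 0.014). With all libraries the rank-sum test also called it (adjusted p = 0.0448). The limma call was lost without replicates 1, 3 and 7 together, where the difference was 0.69 (adjusted p = 0.636) and no gene of the table passed. That fit also had fewer high smoke libraries, and the part of the smaller number in the lost call was not tested. Acot8 stayed past the threshold when any single library was left out. Acadm, Eci1 and Pex6, at 0.26, 0.32 and 0.26, had adjusted p-values of 0.0515, 0.0538 and 0.059, and 11 members had an unadjusted p under 0.05, all 11 higher in high smoke.

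Beyond the members, the rest of the pathway was read from lists by function. Of 34 other peroxisomal enzymes tested, 5 rose and 1 fell in high smoke against air, 17.6% beside 16.3% of all genes, with a median of 0.09. Catalase, Cat, which breaks down hydrogen peroxide, ran from 2087 to 3669 with a median of 2623 normalized counts in high smoke and from 1462 to 2079 with a median of 1617 in air, without overlap. It rose by a log2 difference of 0.71 (SE 0.12, limma adjusted p = 0.000512) and still by 0.46 without the 3 libraries (adjusted p = 0.0299). Gstk1, a glutathione transferase of peroxisomes and mitochondria, rose by 0.86, the CoA hydrolase Nudt19 by 0.62 and the peroxisomal thiolase Acaa1a by 0.37, with adjusted p-values of 0.00488, 0.00488 and 0.00933. The enzymes for the first steps of ether lipid synthesis moved in opposite directions, Gnpat higher by 0.29 (adjusted p = 0.0131) and Agps lower, at -0.41 (adjusted p = 0.0489). Without replicates 1, 3 and 7, Cat alone of the 34 passed.

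**Figure D5:**
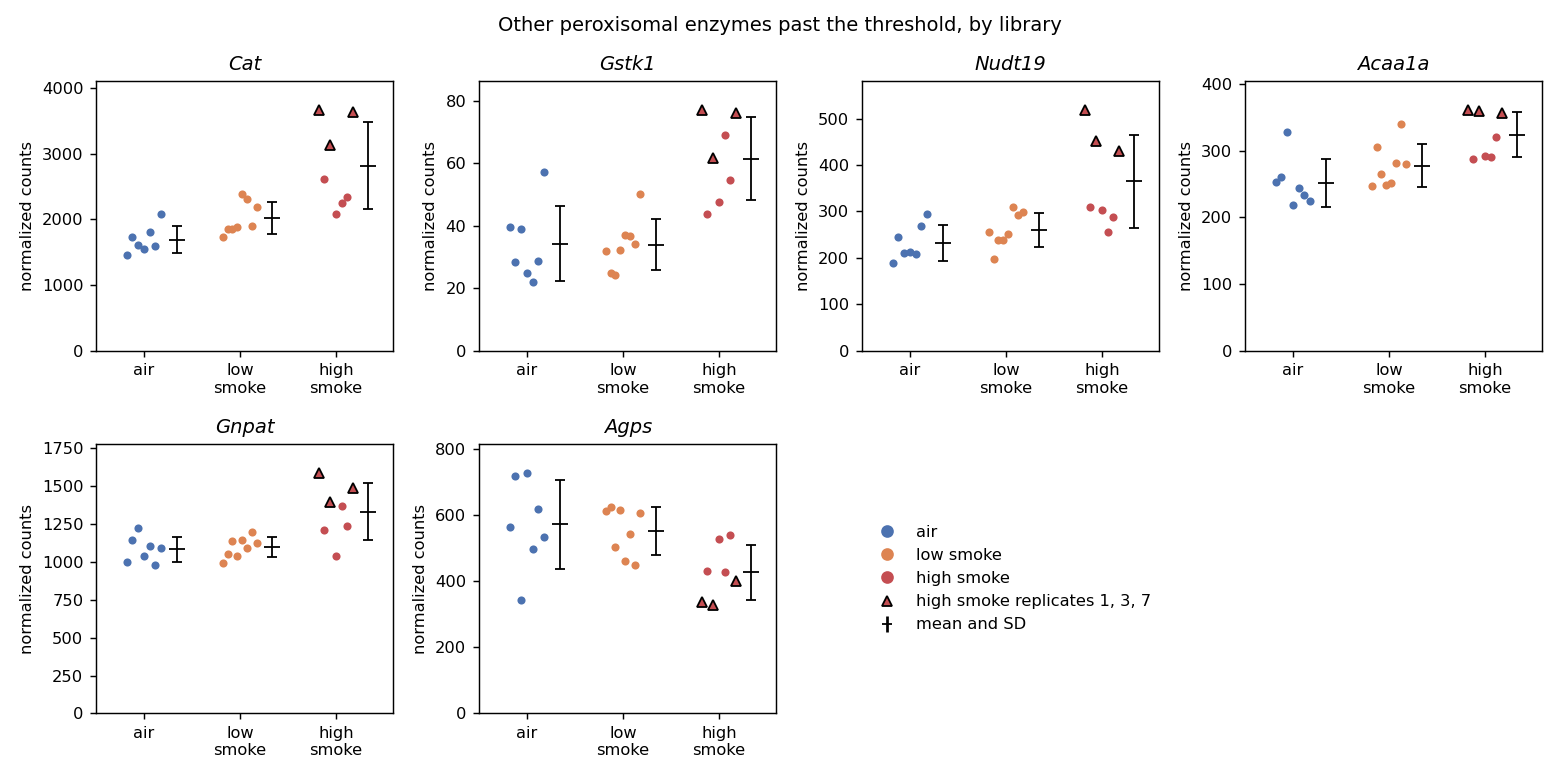
Normalized counts of the 6 other peroxisomal enzymes past the threshold in high smoke against air, by group in order of dose. Circles are libraries, black-edged triangles are high smoke replicates 1, 3 and 7, and bars give the mean and SD. Cat shows no overlap between high smoke and air, and Agps is lower in high smoke.

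Of 28 tested genes in a wider list around mitochondrial fatty acid oxidation, 2 rose and 1 fell, 10.7% beside 16.3% of all genes. The thioesterases Acot7 (0.63) and Them4 (0.50) rose, the basic amino acid carrier Slc25a29 (-0.79) fell, and the list median was 0.06. Of 7 ketone body enzymes tested by limma, 0 passed, 1 had an unadjusted p under 0.05 and the rank-sum test called 0; the median was -0.07. Of 16 genes of peroxisomal membrane transport and division, 2 fell and 0 rose, 12.5% beside 16.3% of all genes. Those that fell were the fission GTPase Dnm1l (-0.24) and the ATPase Atad1 (-0.21), each with a limma adjusted p of 0.0271. Dnm1l severs peroxisomes and mitochondria as they divide. Its values ran from 534.5 to 682.4 in high smoke and from 621.1 to 787.3 in air. Without the 3 libraries, 0 genes of these lists passed the limma test.

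In high smoke against air, limma called 0 genes higher in the list of PPAR receptors and coregulators. The same was true of the list of PPAR target genes outside the members. Neither list is specific to PPARα. Ehhadh and Acadm, members, and Acaa1a, in the list of other peroxisomal enzymes, are also known as PPARα targets, and they rose as given above. The Acadm call was kept in only 5 of 22 fits that left out 1 library. Of the 37 members tested, 31 were not called, among them Pex11a, known as inducible by PPARα ligands (-0.08). The members were not sorted by whether they are PPARα targets. Of 21 receptors and coregulators tested by limma, 0 rose and 1 fell, 4.76% beside 16.3% of all genes. The 1 that fell was the oestrogen related receptor Esrra (-0.56, adjusted p = 0.0149). By limma, 7 had an unadjusted p under 0.05, 3 of them higher, and the rank-sum test called 0. Of 20 target genes outside the members, 0 rose and 1 fell (5%), the malic enzyme Me1 (-0.44, limma adjusted p = 0.00965). Among the 20, 4 had an unadjusted p under 0.05 by limma, 2 in each direction, and the rank-sum test called 0. Pdk4, a kinase that restrains glucose oxidation and a widely used PPARα target, was at -0.64 (limma adjusted p = 0.073). In the other direction, Slc25a20 of the same list was at 0.27 (limma adjusted p = 0.08). Both are named here after their values were seen, and neither passed the threshold. Of 17 genes of fatty acid uptake and storage, 2 rose and 0 fell, 11.8% beside 16.3% of all genes. They were the lipid droplet protein Plin3 (0.44, without overlap between groups) and the monoglyceride lipase Mgll (0.35). Their limma adjusted p-values were 0.00906 and 0.0139. In high smoke against low smoke, limma called 1 of the 20 target genes higher (adjusted p = 0.0499), 5% beside 6.78% of all genes. The 1 of the 17 uptake and storage genes called higher there was the same gene, Fabp4, which is also on the list of macrophage markers. Limma called 1 of the 21 receptors and coregulators lower there. Without replicates 1, 3 and 7, 0 of the genes in these 3 lists passed the limma test in either comparison.

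Markers of several cell types moved with high smoke. Of 10 alveolar type 2 markers, 3 rose, Napsa by 0.82, Sftpc by 0.69 and Sftpd by 0.38, and 1 fell, Lpcat1 at -0.22, together 40% beside 16.3% of all genes. Without replicates 1, 3 and 7, Napsa still rose (0.49, adjusted p = 0.0441), and limma called no other marker of this list. The list's sum ran from 190582 to 240628 normalized counts in air, 183792 to 252326 in low smoke and 232409 to 301439 in high smoke, and no marker was at 0. The 3 libraries that stood apart had sums of 263790, 301439 and 278005, above the other 4 high smoke libraries at 232409 to 249437. Of 5 club cell markers tested by limma, 0 passed, 1 had an unadjusted p under 0.05 and the rank-sum test called 0, with sums of 6623 to 11029 in high smoke and 6715 to 11688 in air. Of 5 smooth muscle markers, 3 rose (60%), with a median of 0.38 and sums of 15492 to 25224 in high smoke and 11997 to 20783 in air. Of 6 endothelial and 6 fibroblast markers, 2 rose in each list (33.3%), as did 2 of 8 alveolar type 1 and 1 of 4 B cell markers (25% each). Of 5 ciliated cell markers, 1 rose and 1 fell (40%), and of 6 macrophage markers, 1 fell (16.7%). Of the 13 protein coding transcripts of the mitochondrial genome, 5 fell (38.5%), including Mt-nd2 (-0.95) and Mt-atp6 (-1.02). The list median was -0.31, and -0.18 without the 3 libraries, and 3 of the 13 lay above air, by up to 0.53. Summed, the 13 ran from 79204, in replicate 1, to 156082 in high smoke and from 113946 to 153806 in air. Of 5 red cell markers, 2 rose (40%), and their sum was 7091 to 14582 in high smoke and 4822 to 7148 in air. With replicates 1, 3 and 7 left out, limma called 0 genes in these lists other than Napsa. The part of these markers, and of the small nucleolar RNA, in the members' differences was not tested.

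In rn6, 7 members share bases with another gene of the table, and the sources used here do not say whether counting used strand. Acot8 overlaps Snx21 and Zswim3 on the other strand, which differed by 0.11 and -0.09 in high smoke against air and were not called. Hsd17b10 overlaps Ribc1 on the other strand, at -0.07. Echs1 lies within Zfp710 and Cpt1b overlaps Chkb, both on the same strand, so reads there cannot be assigned with certainty. The other members with an overlap are Acot2, Pex13 and Pex6, and Acot2 also has near copies in its family.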

How the data were processed

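RNA of male rat lung was sequenced in 22 libraries (air 7, low smoke 8, high smoke 7) of 23 labelled samples. High smoke replicate 8 is marked in its label as dropped for quality, has no column, and was left out; the protocol also names 1 air sample removed for quality. The labels' protocols give about 35 mg of tissue, 1 µg of RNA with an integrity number of at least 9.0 and PrepX libraries. Replicate numbers only name the libraries. Per the submitters' processing notes, the authors used STAR 2.7.3a, Partek, DESeq2 and the build rn6, and they deposited gene counts divided by size factors, whose unit is signal. Within 0.02 reads, 80.7% to 82.8% of values under 200 reads per library were whole multiples of 1 read, so whole reads were not recovered and no count model was run. The libraries held 8484131 to 12055527 read equivalents, and precision is lowest for genes with low values; no interval for counting error was computed.

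Log2(value + 1) was fitted for 14414 genes with a mean of at least 10 in 1 model of the 3 groups with limma 3.58.1 in R 4.3.3 (eBayes with trend, two-sided, Benjamini-Hochberg over all genes, threshold 0.05), after the fit had been tested on simulated data. Alternatives were other pseudocounts, filters, scalings, weights, a robust fit, the 2 groups alone, a rank-sum test, each library left out in turn, and high smoke replicates 1, 3 and 7 left out together. Every member was described; members past the threshold were given with the lowest, median and highest value, and up to 6 called genes were named from each list. Of the 41 genes that the rule finds, 3 are not reported here, and counts of members leave them out, as does 1 list for 1 gene. Members and lists were chosen with earlier results of these data known. Promoters are from RefSeq (GRCr8). Tables were made with Python 3.11.15 and pandas 2.3.3, figures with matplotlib 3.10.9. A planned order of levels per length and a reading of protein ends were not made.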

Additional observations from a re-analysis of the deposited data

Results flagged for a closer look

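In 159 groups of 53 genes (the members and the named genes of the lists), 8 libraries lay far from the others of their group by Dixon's test, a rate near the 1 in 20 that chance gives. Acot8 was at 506.2 normalized counts in air replicate 7, with the other air libraries at 214.2 to 309.5. Air replicate 3 was high for Acads (47.53, others 24.4 to 28.8), Hsd17b10 (79.51, others 47.5 to 57.5) and Acaa1a (327.3). Pex11g was low in low smoke replicate 4, at 44.14, and Pex5l was low in low smoke replicate 5, at 0.974. Outside the members, Slc25a29 was at 47.77 in air replicate 1 and Me1 at 1190 in high smoke replicate 4.

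High smoke and low smoke differed in their distance from air, by the test of high smoke against low smoke, for Acot8 and 6 named genes of the lists. The log2 differences were 1.06 for Acot8, 0.61 for Acot7, 0.46 for Cat, 0.84 for Gstk1, 0.45 for Nudt19, 0.27 for Gnpat and -0.24 for Dnm1l. None of the 7 passed that test when high smoke replicates 1, 3 and 7 were left out together.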

How the results depend on the processing

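No paired analysis was possible because the labels pair no animals and number no replicates. In high smoke against air, 6 members were called, 4 to 10 when single libraries were left out (10 without high smoke replicate 4), 1 by the rank-sum test and 1 without high smoke replicates 1, 3 and 7 together; the other settings gave 4 to 9. In high smoke against low smoke, 1 was called, 1 to 5 when single libraries were left out (2 without high smoke replicate 2, low smoke replicate 5 or 8 or air replicate 4, 3 without low smoke replicate 7 or air replicate 3, 4 without high smoke replicate 4, 5 without high smoke replicate 6), 4 with a mean of at least 50, 2 with only these groups in the fit and 0 without the 3 libraries; the cause was not tested, beyond the smaller number of libraries or genes. In low smoke against air, 0 members were called in each of the 34 settings, which were limma fits except for the rank-sum test. No called difference changed sign; among uncalled differences, some setting changed the sign for 12 members in high smoke against air, 16 in low smoke against air and 9 between the smoke groups. Scaling to the same total gave a median of all genes of -0.0775 in high smoke against air. Leaving out high smoke libraries leaves as few as 4, and depth limits genes with low values such as Pex5l.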
